A study of Mus musculus with 18 samples.

Results

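In hepatocytes of mice that lack Mtdh, treatment with tumor necrosis factor alpha (TNFa) was compared with treatment with transforming growth factor beta (TGFb) across all genes. The comparison used the 3 libraries labelled TNFa KO and the 3 labelled TGFb KO, 6 of the 18 in the series, taken by their labels. Both groups were liver hepatocytes of Mtdh knockout (KO) mice in the condition "normal, no tumor", so both carried the loss of Mtdh and each had received 1 of the cytokines. The other 12 libraries were wild-type (WT) hepatocytes with TNFa or TGFb, and KO and WT hepatocytes with medium conditioned by Kupffer cells (CM) treated with Py8119-EVPs, 3 biological replicates a group. KO and WT mice were age-matched. The sources used here give no doses, times, ages or sex, nor the removed part of Mtdh, nor whether replicates came from separate mice, so the p-values measure the spread between these libraries. No untreated group was analysed here, so a gene raised by TNFa and a gene lowered by TGFb cannot be told apart.

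Mtdh codes for metadherin, a membrane and RNA-binding protein studied in cancer and in NF-kappaB signaling. TNFa binds the receptors Tnfrsf1a and Tnfrsf1b and activates the kinases that free NF-kappaB, a family of transcription factors that drives chemokines, adhesion molecules and its own inhibitors. TGFb binds Tgfbr2 and Tgfbr1, which phosphorylate Smad2 and Smad3, and the SMAD complex then induces matrix genes and feedback inhibitors such as Smad7. Hepatocytes carry the receptors of both cytokines.

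Values below are the authors' deposited normalized values. Differences are log2 fold changes, TNFa minus TGFb, with their standard error, on the log2(value + 1) scale, from a limma model of all 18 libraries. A gene is called higher or lower with TNFa where its Benjamini-Hochberg adjusted p over the 14455 tested genes was below 0.05. The libraries held an estimated 20.3 to 29.1 M reads with TNFa and 21.5 to 28.5 M reads with TGFb, and libraries of a group correlated at 0.937 to 0.95 and at 0.941 to 0.947. Mtdh itself was read at 749, 829 and 581 with TNFa and 973, 970.4 and 933 with TGFb in KO, against 13063, 13037 and 12393 and 13598, 13725 and 12873 in WT, so every KO library was far below every WT library. Within KO it was lower with TNFa (-0.43 ± 0.11, limma adjusted p = 0.0031), but not past the threshold without TNFa KO 3 (-0.28, adjusted p = 0.053), under equal library totals (-0.17, adjusted p = 0.22) or in a fit of the 6 libraries alone (-0.43, adjusted p = 0.066).

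Of the 14455 genes, 3237 (22.4%) were called, 1458 of them higher with TNFa (10.1%) and 1779 lower (12.3%), and 975 of the 3237 differed by more than 2-fold. These percentages are the background for the lists below, and the median over all tested genes was 0.04. Summed deposited values were 21.6 to 22.1 M in the TNFa KO libraries and 25.8 to 26.4 M in the TGFb KO libraries. With every library scaled to an equal total, the median of all genes moved to 0.29 and the split became 3756 higher and 1119 lower. All 1458 genes called higher were also called higher under that scaling, 1118 of the 1779 called lower were also called lower, and 18 of these 1779 changed sign. Lists whose counts or sign moved with it are named where they occur. Their counts under equal totals stand beside 3756 higher and 1119 lower of the 14455 genes, not beside 10.1% and 12.3%.

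**Figure D1:**
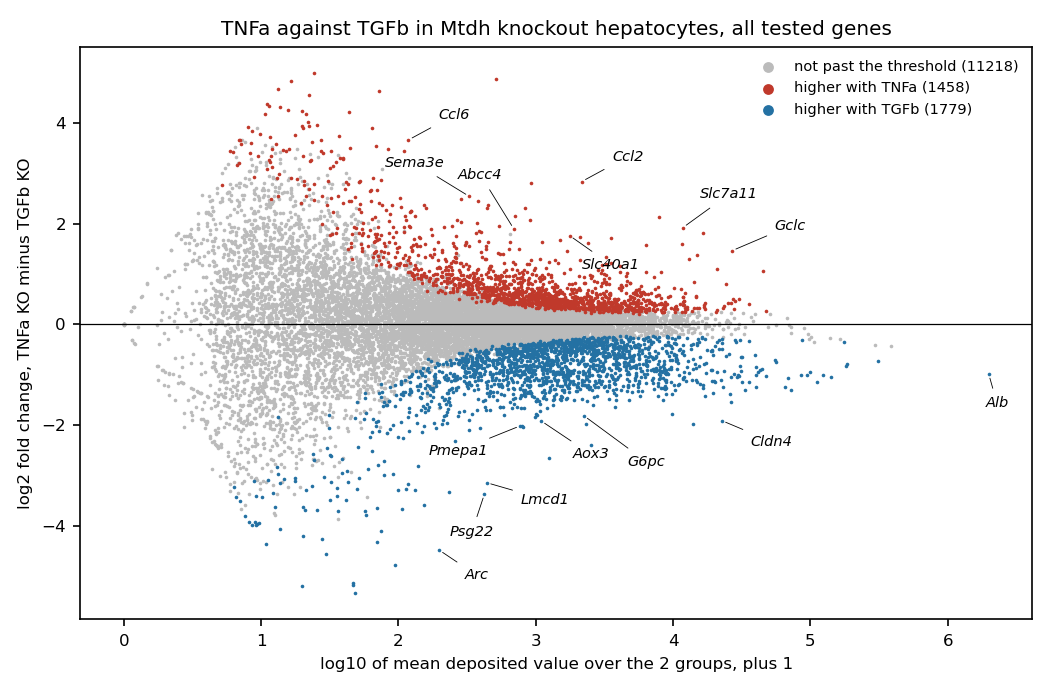
Each point is 1 of the 14455 tested genes, with the log10 of its mean deposited value over both groups plus 1 on the x axis and the log2 fold change, TNFa KO minus TGFb KO, on the y axis. Red marks the 1458 genes called higher with TNFa, blue the 1779 called lower (higher with TGFb) and grey the rest. Ccl2 (2.83) and Arc (-4.47) lie far from 0, on opposite sides.

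Among the 15 largest rises were 5 genes known from macrophages and other myeloid cells, grouped so after their values were seen. Clec4a1, a C-type lectin receptor, had the largest rise of the 15 and was read at 149, 103 and 148 with TNFa and 0, 7.93 and 16.8 with TGFb (4.61 ± 0.86). Ccl6, a chemokine, stood at 173, 308 and 155 against 19.5, 3.4 and 45.5 (3.66 ± 0.72), and the adhesion receptor Adgre4 (2.90 ± 0.84), the formyl peptide receptor Fpr2 (2.82 ± 0.81) and the chemokine Ccl3 (2.66 ± 0.84) also rose. These 5 genes were at low values, and 2 lost the call in fits without 1 library, Adgre4 without TGFb KO 1 (2.30, adjusted p = 0.078) and Ccl3 without TNFa KO 1 (2.63, adjusted p = 0.056), TNFa KO 3 (2.50, adjusted p = 0.069) or TGFb KO 2 (2.22, adjusted p = 0.092).

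At higher values, Ccl2, a chemokine that draws monocytes, was read at 3933, 4036 and 3378 with TNFa and 598, 698 and 354 with TGFb, a log2 fold change of 2.83 ± 0.17 (limma adjusted p = 3.4e-13). Sema3e, a secreted guidance protein, stood at 526, 673 and 472 against 63.1, 98.5 and 134 (2.54 ± 0.23). In both genes the lowest TNFa library was above 3 times the highest TGFb library. Arc, an immediate-early gene best known from neurons, was read at 27.8, 5.44 and 24.5 with TNFa and 323, 345 and 457 with TGFb (-4.47 ± 0.58). Lmcd1, a LIM domain cofactor, stood at 108, 72.9 and 89 against 790.2, 758 and 816 (-3.13 ± 0.34), and Psg22, a pregnancy-specific glycoprotein gene, at 66.1, 90.3 and 65.4 against 949.9, 705 and 656 (-3.36 ± 0.37). Here each TGFb library was above 3 times every TNFa library.

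Genes of the TNF pathway itself were not broadly higher with TNFa. Of 29 receptor and death signaling genes 7 were called higher and 3 lower (under equal totals 11 and 1), with a median of 0.12 (0.37 under equal totals). The main receptor Tnfrsf1a was read at 968, 1011 and 1052 with TNFa and 1102, 918 and 1192 with TGFb (-0.08 ± 0.15, limma adjusted p = 0.78), with overlapping groups, and its sign turned under equal totals (0.18) and without TGFb KO 3 (0.0053). Tnfrsf1b was lower with TNFa at 2309.6, 2227 and 2181 against 3283, 3065 and 3161 (-0.50 ± 0.09), with no overlap. Among the genes called higher were Mlkl, the executioner of necroptosis (0.82 ± 0.19), Bid, a death-promoting BCL2 relative (0.60 ± 0.13), and Birc3, an apoptosis inhibitor (0.49 ± 0.12).

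Of 22 NF-kappaB subunit and feedback genes 4 were called higher and 2 lower, with a median of 0.18 (0.43, with 10 higher and 1 lower under equal totals). None of the subunits was called. Nfkb1 stood at 0.15 ± 0.11, Nfkb2 at 0.36 ± 0.17 and Relb at 0.53 ± 0.25. Rela (-0.03 ± 0.14) and Rel (-0.11 ± 0.13) turned sign under equal totals (0.23 and 0.15), and Rela also under quantile normalization (0.03) and without TGFb KO 1 (0.064). Ikbke, an inflammatory kinase, was higher at 938, 703 and 812 against 509.8, 313 and 360.2 (1.07 ± 0.17), as were the IkappaB kinase genes Ikbkb (0.63 ± 0.14) and Ikbkg (0.53 ± 0.08). The inhibitor Tnfaip3 (A20) was higher as well (0.35 ± 0.10) but did not pass without TGFb KO 3 (0.28, adjusted p = 0.066). Nfkbiz, an atypical IkappaB protein, was lower at 681, 498 and 498 against 1103, 1398 and 1094 (-1.10 ± 0.14), and so was the kinase Chuk (-0.45 ± 0.10), though not under equal totals (-0.19, adjusted p = 0.11).

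Among 23 effector and adhesion genes of the TNF response 3 were called higher and 4 lower, with a median of 0.00 (5 higher, 3 lower and a median of 0.25 under equal totals). In WT hepatocytes the median of the same list was 0.72, and the median KO minus WT difference was -0.52. Of the 23 genes 3 had such a difference called below 0 and 0 above, beside 0.851% and 0.249% of all genes. Tnfaip2, a TNF-induced gene, was read at 1251, 1118 and 1263 with TNFa and 571, 445 and 571 with TGFb (1.20 ± 0.16). Csf1, the macrophage growth factor, stood at 1552, 1788 and 1565 against 775, 791 and 868 (1.01 ± 0.13), and Vcam1, an adhesion molecule, at 1028, 983 and 1143 against 591, 571 and 479 (0.94 ± 0.17). In none of these did the groups overlap. Sdc4, a heparan sulfate proteoglycan (-0.95 ± 0.08), Slc39a14, a zinc and iron importer (-0.83 ± 0.08), and Gch1, the first enzyme of tetrahydrobiopterin synthesis (-0.66 ± 0.08), were lower. The adhesion molecule Icam1 (0.13 ± 0.15) and the inhibitor Nfkbia (0.18 ± 0.13) passed only under equal totals (0.39, adjusted p = 0.048 and 0.43, adjusted p = 0.011).

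Chemokines, which recruit leukocytes, were mostly higher with TNFa. Of 18 tested, 10 were called higher and 2 lower, with a median of 1.01 beside 0.04 for all genes. Ccl7, a monocyte chemokine, was read at 538, 576 and 325 with TNFa and 84.5, 118 and 55 with TGFb (2.49 ± 0.29). The neutrophil chemokine Cxcl1 stood at 887, 836 and 792 against 228, 388 and 358 (1.40 ± 0.17), and Cxcl2 at 367, 361 and 324 against 123, 149.6 and 166 (1.27 ± 0.22). In each of the 3 genes all TNFa libraries lay above all TGFb libraries. Cxcl12, which retains CXCR4-bearing cells in tissue, was lower at 1041, 1039 and 1349 against 2802, 2905 and 2794 (-1.32 ± 0.12). Cxcl9 was called lower as well (-1.27 ± 0.35), but not without TNFa KO 3 (-1.01, adjusted p = 0.057), and the interferon-induced Cxcl10 did not pass (-0.07 ± 0.20), with its sign turned under equal totals (0.18).

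Of 19 markers of Kupffer cells and other macrophages, which also make chemokines, 4 were called higher and 0 lower (2 lower at an unadjusted p below 0.05), and 15 did not pass, with a median of 0.40 (0.65 under equal totals). They summed to 0.0483 ± 0.0029% with TNFa and 0.0277 ± 0.0028% with TGFb of a library (mean ± SD, n = 3, exact two-sided permutation test, p = 0.1, the smallest that 3 against 3 allows). Slc40a1 alone held 0.0124 ± 0.00036% with TNFa and 0.00307 ± 0.00019% with TGFb, and the list without it, a sum added after seeing the data, 0.0358 ± 0.0028% with TNFa and 0.0246 ± 0.0027% with TGFb (n = 3, exact permutation test, p = 0.1). The called ones were Slc40a1 (1.76 ± 0.11), Adgre1 (0.89 ± 0.22), Lyz2 (0.51 ± 0.13), and Cd163 (3.47 ± 0.83, adjusted p = 0.056 in a fit of the 6 libraries alone). Cd163 was listed at 0 in 2 of the 3 TGFb libraries. The Kupffer cell genes Clec4f (-1.10 ± 0.46, called lower in the fit of the 6 libraries alone, adjusted p = 0.037) and Cd5l (0.27 ± 0.21) did not pass. In bulk RNA, fewer cells of a type and less RNA per cell cannot be told apart, and the part of these cells in the chemokine result, or in Clec4a1 and the other myeloid genes above, was not tested.

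Upstream bases of 6 genes are printed, each with a match to the NF-kappaB or SMAD motif. Ikbke, Junb and Ccl6 were searched in the same way, had no match and are not printed. Each sequence is the 250 bases before the start in RefSeq on GRCm38.p6, an older build than the mm39 of the deposited table. Csf1, Tnfaip2 and Ikbke were TNF genes higher with TNFa, and Vegfa, Id3 and Junb TGFb target genes higher with TGFb. They were chosen by small p among called genes with an entry. The choice did not take in every called gene, and Smad7, lower with TNFa at a smaller p than Id3, was not in it. Cxcl1, Cxcl2 and Ccl6 were added after their values were seen. The regions are chr3:107760470-107760719 (minus strand) for Csf1, chr12:111442411-111442660 (plus strand) for Tnfaip2, chr5:90890995-90891244 (plus strand) for Cxcl1, chr5:90903649-90903898 (plus strand) for Cxcl2, chr17:46032378-46032627 (minus strand) for Vegfa and chr4:136143572-136143821 (plus strand) for Id3. Capitals mark matches on either strand to the NF-kappaB consensus, the AP-1 motif TGANTCA or the SMAD motif CAGAC.
Csf1: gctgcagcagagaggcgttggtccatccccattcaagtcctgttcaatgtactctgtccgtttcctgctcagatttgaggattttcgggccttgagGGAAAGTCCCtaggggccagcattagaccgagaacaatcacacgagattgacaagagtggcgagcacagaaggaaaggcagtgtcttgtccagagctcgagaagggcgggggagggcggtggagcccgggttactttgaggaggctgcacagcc
Tnfaip2: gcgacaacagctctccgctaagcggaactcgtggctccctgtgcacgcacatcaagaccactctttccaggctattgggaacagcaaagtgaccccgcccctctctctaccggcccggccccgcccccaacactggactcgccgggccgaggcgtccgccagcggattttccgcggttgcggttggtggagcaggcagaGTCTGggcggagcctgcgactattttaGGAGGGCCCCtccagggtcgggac
Cxcl1: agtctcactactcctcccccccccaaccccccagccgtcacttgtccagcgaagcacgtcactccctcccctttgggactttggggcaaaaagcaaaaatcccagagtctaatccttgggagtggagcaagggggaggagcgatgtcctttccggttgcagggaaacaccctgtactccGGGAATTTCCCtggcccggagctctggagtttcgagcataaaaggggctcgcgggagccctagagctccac
Cxcl2: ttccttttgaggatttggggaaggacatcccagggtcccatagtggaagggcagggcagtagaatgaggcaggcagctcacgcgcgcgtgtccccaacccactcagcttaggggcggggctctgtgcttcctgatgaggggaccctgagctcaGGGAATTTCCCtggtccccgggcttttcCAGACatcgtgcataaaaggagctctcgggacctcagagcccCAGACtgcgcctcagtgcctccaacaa
Vegfa: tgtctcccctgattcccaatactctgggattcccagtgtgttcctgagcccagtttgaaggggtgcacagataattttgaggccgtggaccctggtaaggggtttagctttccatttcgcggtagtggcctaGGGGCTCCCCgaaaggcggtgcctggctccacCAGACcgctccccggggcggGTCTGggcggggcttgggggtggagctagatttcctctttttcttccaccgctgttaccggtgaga
Id3: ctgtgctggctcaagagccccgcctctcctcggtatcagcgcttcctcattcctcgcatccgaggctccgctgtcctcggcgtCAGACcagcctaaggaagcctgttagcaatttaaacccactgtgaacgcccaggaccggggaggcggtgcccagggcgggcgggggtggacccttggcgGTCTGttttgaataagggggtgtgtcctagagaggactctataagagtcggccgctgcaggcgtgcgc

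Counting back from -1 at the base before the start, an NF-kappaB match began at -154 in Csf1, -24 in Tnfaip2 and -118 in Vegfa, and overlapping pairs began at -71 and -70 in Cxcl1 and at -97 and -96 in Cxcl2. SMAD matches began at -86 and -66 in Vegfa, -167 and -68 in Id3, -69 and -27 in Cxcl2 and -51 in Tnfaip2. Ikbke, Junb and Ccl6 held no match to these letters in this window. Of 11164 tested genes with an entry 8.43% held an NF-kappaB match, as did 10.2% of the genes called higher and 9.04% of those called lower. In the NF-kappaB list 8 of 17 promoters held one, and among chemokines 4 of 11. The short SMAD motif was found in 41.1% of all, in 40.6% of the genes called lower and in 9 of 20 TGFb target genes. Among SMAD and TGFb feedback genes 3 of 10 promoters held it. With the 50 bases after the start included, 9.86% of all, 11.9% of the higher and 10.1% of the lower genes held an NF-kappaB match. In the 170 bases before the start these shares were 6.14%, 7.0% and 6.07%.

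Of 17 SMAD and TGFb feedback genes 1 was called higher and 8 lower with TNFa, and 8 did not pass. Their median was -0.11, and under equal totals 0.15, with 6 higher and 4 lower. Those lower included 3 inhibitors of the pathway. Pmepa1, an inhibitor that SMADs induce, was read at 261, 332 and 329 with TNFa and 1163, 1419 and 1131 with TGFb (-2.01 ± 0.17, limma adjusted p = 1.8e-10). Smad7, the inhibitory SMAD, stood at 445, 379 and 397 against 1208, 1043 and 1122 (-1.47 ± 0.17), and Skil, a SMAD co-repressor, at 5308, 5727 and 5555 against 8584, 9699 and 8261 (-0.68 ± 0.08). The groups did not overlap in any of these. In the CM KO libraries, whose labels name neither cytokine, Pmepa1 stood at 208, 286 and 282 and Smad7 at 382, 305 and 328, all below the TGFb KO libraries. Smad6 (-3.11 ± 0.94) was at low values with overlapping groups, and did not pass without TNFa KO 3 (-1.72, adjusted p = 0.18) or TGFb KO 3 (-2.65, adjusted p = 0.088), or in a fit of the 6 libraries alone (-3.12, adjusted p = 0.093).

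The 1 gene of the 17 called higher was Smad3 (0.43 ± 0.11), a signal transducer, and there were 2 without TNFa KO 2 or without TGFb KO 2 and 3 under quantile normalization. Smad2 was lower (-0.34 ± 0.09), though not past the threshold without TNFa KO 1 (-0.27, adjusted p = 0.066) or under equal totals (-0.08, adjusted p = 0.54), and the common partner Smad4 did not pass (0.23 ± 0.11). The receptors went opposite ways. Tgfbr1 was read at 5063, 5395 and 5173 with TNFa and 9432, 10420.5 and 9884 with TGFb (-0.93 ± 0.08), while its partner Tgfbr2 was higher with TNFa at 1822, 1473 and 1900.3 against 1035, 1131 and 1158 (0.64 ± 0.14). Of 20 ligand, latency and receptor genes 4 were called higher and 4 lower (7 and 3 under equal totals). The ligands Tgfb1 (0.53 ± 0.40), Tgfb2 (0.36 ± 0.14) and Tgfb3 (0.56 ± 1.46, and -0.46 without TNFa KO 3) did not pass.

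Of 29 TGFb target genes 5 were called higher and 10 lower, with a median of -0.46 (-0.21 under equal totals). Ccn2, a matricellular growth factor, was read at 2561, 2703 and 2096 with TNFa and 5609, 6193 and 6103 with TGFb (-1.29 ± 0.11). Vegfa, the vessel growth factor, stood at 9834, 9984 and 10305 against 25203, 22095 and 22365 (-1.21 ± 0.08), and Junb, an AP-1 subunit, at 1548, 1424 and 1628 against 3672, 3169 and 3193 (-1.12 ± 0.10). In these genes each TGFb library was above each TNFa library. Id3, a repressor of bHLH factors, stood at 869, 830.4 and 919 against 1552, 1264 and 1661 (-0.76 ± 0.14), also without overlap. Zeb2, a repressor of epithelial genes, was higher with TNFa instead, at 1353, 1588 and 1668 against 742, 643 and 497 (1.30 ± 0.15), and so was Angptl4, a lipase inhibitor (0.92 ± 0.15).

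Matrix genes did not move as one. Of 33 tested, 8 were called higher and 5 lower, with a median of 0.08 (0.34 under equal totals, 5 higher without TNFa KO 1 or without TNFa KO 3, 3 lower without TNFa KO 1 or without TGFb KO 2, and 3 lower under equal totals). Fibronectin (Fn1) was lower at 14302, 11595 and 13390.1 against 22222, 21777 and 29878 (-0.90 ± 0.13), and so was the collagen crosslinking enzyme Lox (-0.61 ± 0.13). The basement membrane collagens Col4a1 (0.93 ± 0.12) and Col4a2 (1.34 ± 0.27) and the fibril-associated Col12a1 (0.76 ± 0.11) were higher. Stellate cell and fibroblast markers summed to 0.00933 ± 0.00086% with TNFa and 0.00476 ± 0.00058% with TGFb, with 1 of 9 tested called higher, Reln. Sinusoidal endothelial markers summed to 0.03 ± 0.001% with TNFa and 0.0222 ± 0.0024% with TGFb, with 3 of 16 called higher, and 7 under equal totals (mean ± SD, n = 3, exact permutation test, p = 0.1 for both). The part of either cell type in the matrix result was not tested.

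Of 32 cytoskeletal, integrin and mesenchymal genes 12 were called higher and 5 lower, with a median of 0.27 (0.46 under equal totals). The lower count was 2 without TNFa KO 2, 3 without TNFa KO 1, TGFb KO 1 or TGFb KO 3, 2 under quantile normalization, 3 without the filter and 1 under equal totals. Filamin A (Flna, 1.04 ± 0.10), vinculin (Vcl, 0.58 ± 0.08) and the integrins Itgb3 (1.03 ± 0.15) and Itga3 (0.83 ± 0.12) were higher. The calcium-binding protein S100a6 was lower at 517, 381 and 469 against 1669, 1523 and 1548 (-1.80 ± 0.14), with the groups far apart. Of 28 AP-1 and immediate-early genes 4 were called higher and 9 lower, at a median of -0.25 that was 0.00 under equal totals, where 7 were higher and 7 lower. Fosb (-1.64 ± 0.19) and the growth factor Hbegf (-1.47 ± 0.15) were lower, and Fosl1 (0.83 ± 0.18) and the ERK phosphatase Dusp6 (0.81 ± 0.10) were higher.

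Of 13 ductal and fetal-type genes 2 were called higher and 5 lower (1 higher without TNFa KO 1, without TGFb KO 1 or in a fit of the 6 libraries alone), at a median of -0.09 that was 0.16 under equal totals. The tight junction gene Cldn4 was read at 9569, 8362 and 10799 with TNFa and 34491, 34035 and 38606 with TGFb (-1.90 ± 0.09, limma adjusted p = 7.5e-15). The biliary factor Sox9 (-0.65 ± 0.13) and the epithelial adhesion gene Epcam (-2.10 ± 0.50) were lower too. The fetal protein Afp was higher, at 154, 138 and 138 against 38.1, 34 and 38.3 (1.93 ± 0.43). Cholangiocyte markers, among them Sox9 and Epcam, summed to 0.0298 ± 0.0032% with TNFa and 0.0366 ± 0.0046% with TGFb (mean ± SD, n = 3, exact permutation test, p = 0.1), and their part in this result was not tested.

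Interferon-stimulated genes, the antiviral set that interferons induce, were mostly higher with TNFa. Of 41 tested, 31 were called higher and 1 lower, where 10.1% and 12.3% of all genes were, and the median was 0.81. Parp14, an ADP-ribosyltransferase, was read at 3919, 3302 and 3704 with TNFa and 1048, 1377 and 1151 with TGFb (1.62 ± 0.11, limma adjusted p = 3.8e-12). Usp18, which removes ISG15 from proteins, stood at 3570.3, 3103 and 3272 against 1826, 1911 and 1558 (0.91 ± 0.11), and Eif2ak2 (PKR), a sensor of double-stranded RNA, at 2314, 1901 and 2226 against 1162, 1269 and 785 (1.03 ± 0.13). The groups did not overlap in these genes. The antiviral genes Cmpk2 (1.95 ± 0.24) and Rsad2 (1.58 ± 0.20) were higher too, and the transcription factors Stat2 (0.93 ± 0.16) and Irf9 (0.51 ± 0.13) by less than 2-fold. The 1 gene lower was Iigp1, an immunity-related GTPase, at 1869, 1953 and 2014 against 3130.2, 3144 and 3225 (-0.70 ± 0.12).

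Of 27 genes of the NRF2 antioxidant program 11 were called higher and 3 lower, with a median of 0.31 (0.57, with 18 higher and 2 lower under equal totals). Slc7a11, the cystine importer, was read at 17487, 21276 and 16984 with TNFa and 3974, 6214 and 4743 with TGFb (1.92 ± 0.11). Gclc, the catalytic subunit of the rate-limiting enzyme of glutathione synthesis, stood at 38674, 43180.4 and 36492 against 14390.3, 16076 and 12585 (1.46 ± 0.09), and Txnrd1, thioredoxin reductase, at 21402, 21225 and 22425 against 8653, 8198 and 8349 (1.37 ± 0.08). In all 3 genes the lowest TNFa library was above 2 times the highest TGFb library. The exporter Abcc4 (1.89 ± 0.16) and Pgd, a source of NADPH (1.02 ± 0.09), were also higher. Gsta1 was called higher (2.30 ± 0.25) but has near-identical copies, so its reads are uncertain, and the transferases Gstm1 (-1.24 ± 0.13) and Gstm3 (-1.36 ± 0.34), lower with TNFa, also belong to a family of close copies. Nqo1, a quinone reductase often used to read NRF2 activity, did not pass (0.53 ± 0.26) except under equal totals (0.78, adjusted p = 0.02).

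**Figure D2:**
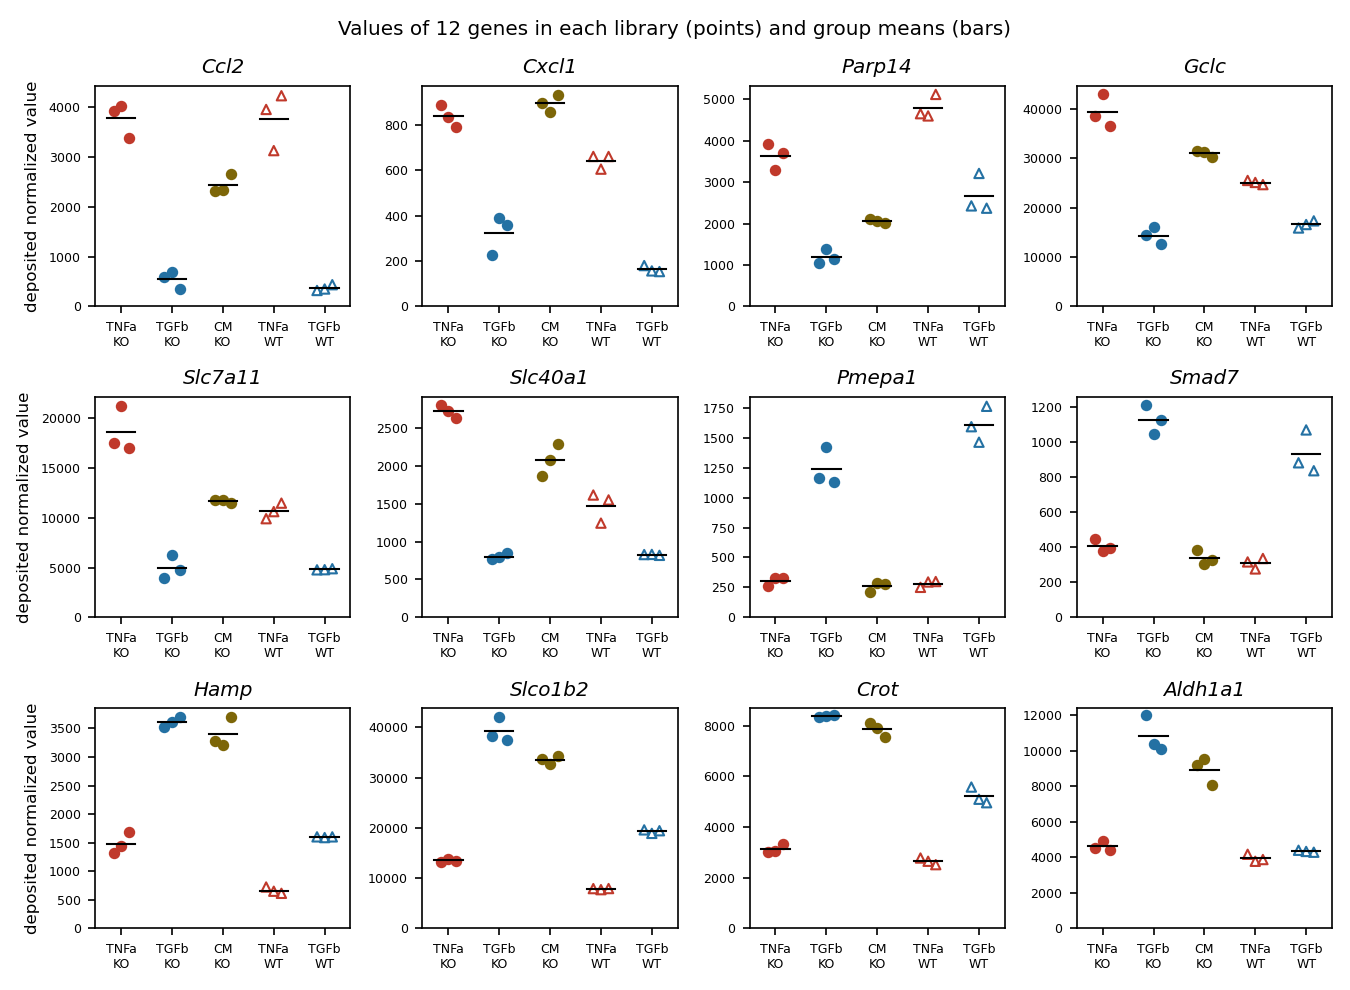
Deposited normalized values (y axis, linear, from 0) of 12 genes in each library of the TNFa KO, TGFb KO, CM KO, TNFa WT and TGFb WT groups (x axis), with filled circles for KO, open triangles for WT and bars for the mean of 3. In each of the 12 genes the TNFa KO points lie apart from the TGFb KO points, as for Ccl2, read at 3933, 4036 and 3378 against 598, 698 and 354. The 12 were picked from genes called in this comparison, so this separation follows in part from that choice.

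Iron genes differed at the exporter and at its hormone. Slc40a1, ferroportin, which lets iron out of cells, was read at 2808, 2731 and 2627 with TNFa and 768, 795 and 846 with TGFb (1.76 ± 0.11, limma adjusted p = 3.5e-13). It is also 1 of the 19 macrophage markers, 4 of which were called higher, and the part of macrophages in this result was not tested. Hamp, which codes for hepcidin, the hormone that removes ferroportin, was lower at 1317, 1437 and 1686 against 3533, 3617 and 3694 (-1.29 ± 0.10), and so were its regulators Tmprss6 (-0.99 ± 0.10) and Tfr2 (-0.95 ± 0.13). In the CM KO libraries Slc40a1 stood between both groups, at 1868, 2079 and 2287, and Hamp at 3277, 3215 and 3704, above all TNFa KO libraries. The ferritin chain Fth1 was higher (0.51 ± 0.10). Of all 26 iron and BMP genes 4 were called higher and 6 lower, at a median of -0.19 that was 0.07 under equal totals, where 8 were higher.

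Genes of the differentiated hepatocyte were nearly all lower with TNFa. Of 34 identity genes limma called 33 lower and 0 higher (0 at an unadjusted p below 0.05), with a median of -1.07, where 12.3% of all genes were called lower. Under equal totals 32 were called lower, with a median of -0.81. Slco1b2, an importer of organic anions, was read at 13235, 13864 and 13466 with TNFa and 38248, 42129.5 and 37576 with TGFb (-1.54 ± 0.08, limma adjusted p = 3.3e-14). Mat1a, which makes S-adenosylmethionine in liver, stood at 19706, 17685 and 20370.3 against 46364, 46298 and 48725 (-1.29 ± 0.09), and Cyp2e1, the ethanol-oxidizing P450, at 68608, 69279.9 and 69509 against 149507, 150738 and 159280.0 (-1.15 ± 0.09). Each TGFb library was above 2 times every TNFa library in these genes. Apob, the structural protein of VLDL, was the 1 gene that did not pass (-0.29 ± 0.11, limma adjusted p = 0.062). It was called lower without TGFb KO 1 (-0.40, adjusted p = 0.011), with the replicate block (adjusted p = 0.047) and with a mean of at least 50 required (adjusted p = 0.025), and higher under quantile normalization (0.34, adjusted p = 0.047).

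Albumin held 6.11 ± 0.24% with TNFa and 10.1 ± 0.31% with TGFb of a library's summed values, and 10 hepatocyte markers 7.62 ± 0.27% with TNFa and 12.3 ± 0.37% with TGFb (mean ± SD, n = 3, exact two-sided permutation test, p = 0.1 for each). Hepatocyte markers were thus abundant in both groups. Marker lists of 7 other cell types each averaged less than 0.05%. Neutrophil markers summed to 0.00206 ± 0.0006% with TNFa and 0.00125 ± 0.00032% with TGFb (0 of 3 tested called higher and 1 lower, S100a8, whose call ended without any 1 of 5 libraries, and 1 higher without TNFa KO 3, TGFb KO 1 or TGFb KO 2), with Ly6g at 0 in all 6 libraries, and in the T and NK cell and B cell lists Cd4, Klrb1c and Cd79b were at 0. T and NK cell markers summed to 0.000498 ± 4.3e-05% with TNFa and 0.000284 ± 0.00011% with TGFb, and B cell markers to 0.000399 ± 9.9e-05% with TNFa and 0.000302 ± 0.00013% with TGFb (exact permutation test, p = 0.4). The 13 mitochondrially encoded genes held 6.11 ± 0.77% with TNFa and 6.25 ± 1.0% with TGFb (n = 3, exact permutation test, p = 0.9), and limma called 0 of them (1 higher under equal totals, 3 under quantile normalization, and 0 higher and 0 lower at an unadjusted p below 0.05).

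**Figure D3:**
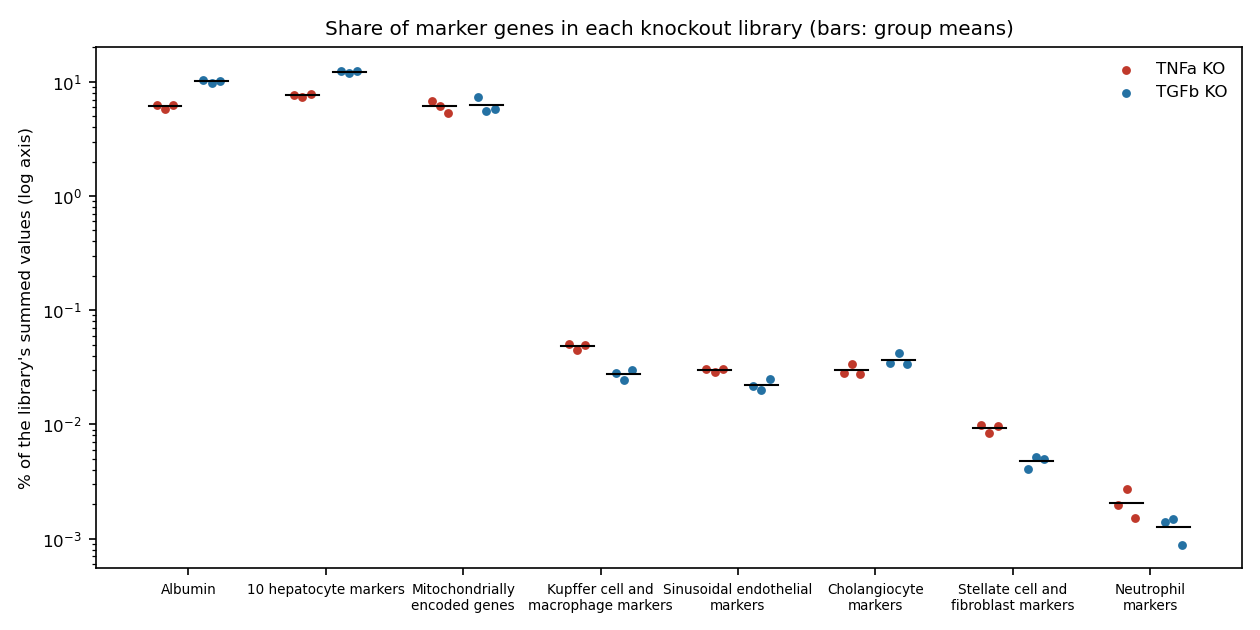
Share of a library's summed deposited values (y axis, percent, log axis) held by albumin, mitochondrially encoded genes and the marker lists of 6 cell types (x axis), with red points for the 3 TNFa KO libraries, blue points for the 3 TGFb KO libraries and bars for group means. Albumin and hepatocyte markers are lower with TNFa (6.11% against 10.1% for albumin), macrophage, sinusoidal and stellate markers are higher, and mitochondrially encoded genes overlap.

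Genes of fatty acid metabolism were mostly lower as well. Of 35 genes of fatty acid oxidation and ketogenesis limma called 31 lower and 0 higher (0 at an unadjusted p below 0.05), with a median of -1.04. Crot, which prepares peroxisomal fatty acids for mitochondria, was read at 3004, 3052 and 3348 with TNFa and 8336, 8369 and 8403 with TGFb (-1.42 ± 0.08), and Hadh, a mitochondrial beta-oxidation enzyme, at 4710.1, 5023 and 5223 against 12062, 11948 and 11749 (-1.26 ± 0.09). Neither gene's groups overlapped. The gate enzyme Cpt1a was lower too (-1.13 ± 0.15). Of 30 genes of fatty acid synthesis, triglycerides and lipid droplets 3 were called higher and 18 lower (1 higher without TNFa KO 3). The desaturase Scd1 (-1.04 ± 0.10), the acetyl-CoA synthetase Acss2 (-1.28 ± 0.11) and the phosphatidate phosphatase Lpin1 (-1.09 ± 0.11) were lower, and the elongase Elovl6 was higher at 3744, 4471 and 4177 against 2000.2, 2084 and 1809 (1.07 ± 0.10). The cholesterol genes were mixed. Of 25, 2 were called higher and 7 lower and 16 did not pass (1 higher without TGFb KO 2), at a median of -0.09 that was 0.17 under equal totals, with 10 higher and 4 lower there and 5 higher under quantile normalization.

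Of 40 drug metabolism genes 1 was called higher and 36 lower (0 higher without TNFa KO 3 or without TGFb KO 2, and 2 under equal totals or quantile normalization), with a median of -0.94. Aox3, an aldehyde oxidase, was read at 493, 371 and 521 with TNFa and 1723, 1546 and 1912 with TGFb (-1.91 ± 0.14), and the P450 genes Cyp2a12 (-1.27 ± 0.09) and Cyp2j5 (-1.33 ± 0.10) were lower. Many P450 genes of this list have close copies, between which reads may be shared. Of 28 bile acid genes 1 was called higher and 20 lower, with a median of -1.08. The reductase Akr1d1 was read at 2128, 2291 and 1931 against 5425, 5745 and 5508 (-1.40 ± 0.10), and Cyp7a1, the rate-limiting enzyme of bile acid synthesis, was lower as well (-1.34 ± 0.21). The 1 bile acid gene called higher was the exporter Abcc4, and 2 were under equal totals or quantile normalization.

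Genes of both zones of the liver lobule were lower. Their lists share members with lists above, so the counts are not independent. Cps1, Pck1 and G6pc are also identity genes, and Cyp2e1 is also an identity and drug metabolism gene. Of 19 periportal genes 15 were called lower and 0 higher (median -0.88), and of 18 pericentral genes 12 and 0 (median -0.93), with 1 and 0 higher at an unadjusted p below 0.05, 1 higher in each under equal totals and 1 periportal gene higher under quantile normalization. G6pc, the last step of glucose release, was read at 1266, 852 and 896 with TNFa and 3955, 3008 and 3492 with TGFb (-1.81 ± 0.17), and Pck1, which commits carbon to glucose, at 4675, 3856 and 4553 against 13130.5, 10440.5 and 13698 (-1.51 ± 0.11). Rgn, a pericentral enzyme of the ascorbate pathway, stood at 4868, 5266 and 5147 against 12968, 12327 and 11705 (-1.28 ± 0.09). Each had groups far apart. Of 25 genes of glucose production and glycolysis 1 was called higher and 14 lower, and the 1 higher, Pgk1 (0.24 ± 0.09), lost its call when any 1 of the 6 libraries was left out (0.20 to 0.27), without the filter (adjusted p = 0.068), under recomputed median-of-ratios scaling (adjusted p = 0.051) and in a fit of the 6 libraries alone (adjusted p = 0.075). Under equal totals 4 genes of the list were higher, and 3 under quantile normalization.

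Plasma protein genes were mostly lower with TNFa. Of 22 complement genes 1 was called higher and 19 lower, with a median of -0.85, and C3, the central component, was read at 45825, 36186 and 43976 with TNFa and 107744, 89408 and 111939 with TGFb (-1.30 ± 0.12). The 1 gene higher was Cd55, a complement inhibitor on cell surfaces (2.36 ± 0.57). Of 27 coagulation genes 2 were called higher and 21 lower, with a median of -0.83, and those higher were thrombomodulin (Thbd, 0.80 ± 0.16) and the urokinase receptor (Plaur, 0.68 ± 0.17), with 4 under equal totals. The acute-phase list was mixed, as of 32 genes 5 were called higher and 16 lower (3 higher without TNFa KO 1, and 8 under equal totals). The fibrinogen chain Fgg was lower (-1.04 ± 0.10). Saa3, an inflammatory apolipoprotein, was higher at 639.5, 507 and 652 against 217, 128 and 160.3 (1.85 ± 0.20), and so was Il1rn, the interleukin-1 receptor antagonist, at 4364, 5062 and 4598 against 1593, 2151 and 1831 (1.34 ± 0.12).

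Of 20 hepatocyte transcription factors 1 was called higher and 7 lower, with a median of -0.51 (-0.25 under equal totals). Hnf4a, a master regulator of liver genes, was read at 3246, 2487 and 3366 with TNFa and 5229.8, 4209.8 and 4955 with TGFb (-0.67 ± 0.11), and the pioneer factor Foxa3 at 434, 589 and 542 against 1367, 1343 and 1777 (-1.52 ± 0.14). The bile acid receptor Nr1h4 (-1.02 ± 0.23) and the xenobiotic receptor Nr1i3 (-1.38 ± 0.29) were lower too. Foxa2 was higher at 225, 233 and 190.2 against 56.6, 63.5 and 74.2 (1.72 ± 0.31), with no overlap. Onecut1 (-4.30 ± 1.38) was at low values and did not pass without a filter on low values (-4.30, adjusted p = 0.055), nor without TNFa KO 1 (-4.34, adjusted p = 0.051), TNFa KO 3 (-3.06, adjusted p = 0.16), TGFb KO 1 (-4.43, adjusted p = 0.052) or TGFb KO 2 (-3.76, adjusted p = 0.092). The list's other 12 genes did not pass.

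**Figure D4:**
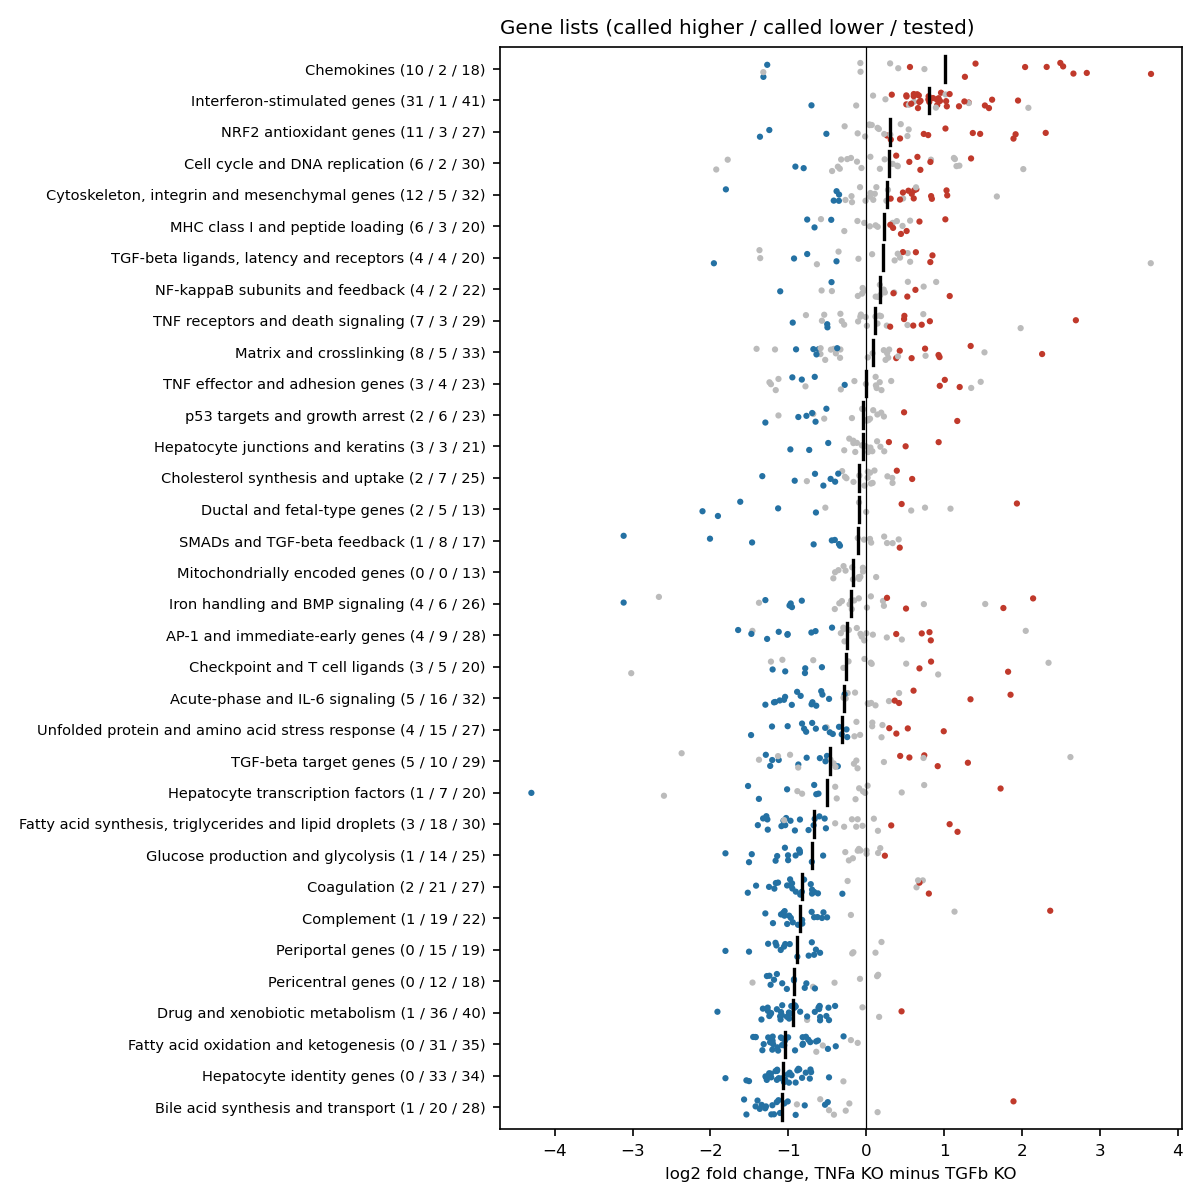
Log2 fold changes, TNFa KO minus TGFb KO (x axis), of the tested members of 34 gene lists (rows, ordered by median), with red points called higher with TNFa, blue points called lower, grey points not past the threshold and black bars for medians. Numbers beside a list count members called higher, called lower and tested. Chemokines (1.01) and interferon-stimulated genes (0.81) have the highest medians, and bile acid (-1.08), hepatocyte identity (-1.07) and fatty acid oxidation genes (-1.04) the lowest.

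The same contrast in WT hepatocytes, from 6 other libraries, shows where the treatment difference depended on genotype. Of the 3237 genes called in KO, 2930 (90.5%) had the same sign in WT, a share that was not taken over all tested genes. Their fold changes correlated at 0.757 across genes, which are not independent replicates. For the difference, KO minus WT, limma called 159 genes (1.1%), 123 below 0 (0.851%) and 36 above 0 (0.249%), and 1879 had an unadjusted p below 0.05. In 140 of the 159 the treatment difference was larger in absolute size in KO. This was counted in the main scaling only, and not over all tested genes. The split moved with the scaling, to 42 below and 101 above 0 under equal totals and to 86 and 55 under quantile normalization. The total was 62 without TGFb KO 1 and 286 without TGFb KO 2, and it was 71 without TNFa WT 1, 78 without TNFa WT 3, 97 without TGFb KO 3, 69 without TGFb WT 1, 87 without TGFb WT 2 and 83 without TGFb WT 3.

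Slc7a2, a transporter of arginine and lysine, had the smallest p for this difference. It was read at 13738, 14601 and 13373 with TNFa and 11592, 12370.2 and 12450.1 with TGFb in KO (0.20 ± 0.08, not past the threshold) and at 13650.4, 13856 and 15054 with TNFa and 4846, 4793 and 5516 with TGFb in WT (1.49 ± 0.08). The TGFb WT group alone was low. The difference was -1.29 ± 0.12 (limma adjusted p = 1.4e-07). Aldh1a1, which makes retinoic acid, stood at 4527, 4895 and 4439 against 12006, 10401 and 10129.8 in KO (-1.23 ± 0.09) and at 4173, 3778 and 3875 against 4399, 4333 and 4288 in WT (-0.14 ± 0.09). Here the TGFb KO group alone was high, and the difference was -1.09 ± 0.12 (limma adjusted p = 6.8e-06). Lpin1 was likewise lower with TNFa in KO (-1.09 ± 0.11) and near 0 in WT (-0.01 ± 0.11).

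Gclc was higher with TNFa by 1.46 ± 0.09 in KO and 0.60 ± 0.09 in WT, a difference of 0.86 ± 0.13 (limma adjusted p = 4.7e-04), with WT values of 25542, 25137 and 24697 with TNFa and 15892, 16597 and 17339 with TGFb. All TNFa KO libraries were above all TNFa WT libraries. Slc40a1 (0.94 ± 0.15) and Slc7a11 (0.77 ± 0.15) differed in the same direction, and Tgfbr1 was lower with TNFa by less in KO than in WT (0.57 ± 0.11). By list, a difference was called below 0 for 6 of 35 fatty acid oxidation genes and 6 of 30 fatty acid synthesis and triglyceride genes. It was also called below 0 for 6 of 40 drug metabolism, 4 of 19 periportal and 3 of 23 TNF effector genes. Glucose (3 of 25), cholesterol (3 of 25) and coagulation genes (3 of 27) had such differences too, and the other lists had fewer. Of 27 NRF2 genes 3 had a difference called above 0. List counts of this difference were made in the main scaling only, and lists share members. These counts stand beside 0.851% and 0.249% of all genes and are descriptions. Of the 18 chemokines and the 17 SMAD and feedback genes 0 had a called difference by limma. At an unadjusted p below 0.05, 3 chemokines and 0 SMAD and feedback genes lay below 0, and 0 and 2 above 0.

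**Figure D5:**
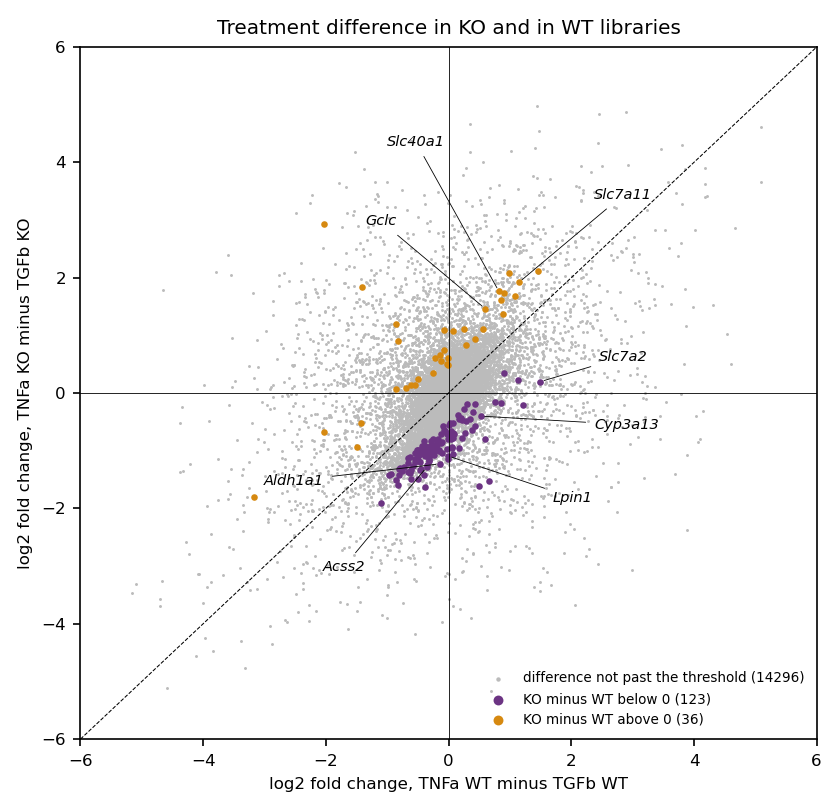
Log2 fold changes of TNFa minus TGFb in WT (x axis) and in KO (y axis) for the 14455 tested genes, with the dashed line at equal values. Purple points are the 123 genes with a KO minus WT difference called below 0, orange points the 36 called above 0 and grey points the rest. Slc7a2 lies at 1.49 in WT and 0.20 in KO, and Aldh1a1 at -0.14 and -1.23.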

How the data were processed

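Total RNA of hepatocytes was depleted of ribosomal RNA and sequenced in 6 groups of 3 libraries. The authors deposited 1 normalized signal per gene and library for 16873 protein-coding genes, named DESeq2-normalized in the deposited table. The submitters' processing notes list STAR 2.7.8a, DESeq2, Partek and the build mm39, without settings. Depth was estimated as the summed values over the commonest value below 3, taken as 1 read. Only 80.5% to 84.0% of values up to 20 such reads lay within 0.05 of a whole number, so no count test was run.

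Genes that reached 10 in 3 or more libraries were fitted as log2(value + 1) with limma's trended, moderated test (limma 3.58.1, R 4.3.3) on 6 group means, checked on simulated data. Of several gene models with 1 symbol, the one with the highest mean was described. Shares were compared by exact permutation tests (SciPy 1.17.1). The comparison, 34 gene lists and 8 marker lists were chosen with earlier results of these data known. Named were Mtdh, the 15 largest rises and falls among called genes with a mean of at least 50 and groups that did not overlap, up to 4 called members a list and direction, pathway genes by role and the 10 smallest p-values of the KO minus WT difference. The text leaves out some, among them genes not reported here, and gives 21 further list members chosen after their values were seen. Promoters are the first listed per gene in RefSeq. The window of 250 bases was settled with matches in 300 bases known, and those and 170 bases were tried after seeing the data. Alternatives were a pseudocount of 0.5 or 5, no filter or a mean of at least 50, median-of-ratios, equal-total or quantile scaling, a fit of only the groups compared, a replicate block, library weights and leaving out each library.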

Additional observations from a re-analysis of the deposited data

Results flagged for a closer look

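In 29 named genes the TNFa minus TGFb difference was itself different between KO and WT, by the interaction term of the limma fit over 14455 genes (adjusted p of 1.4e-07 to 0.048). Over all 14455 genes it was called for 159 (1.1%). Named by rule were 244 genes, and the smallest p-values of this same difference were part of that rule. The 29 are thus in part a result of the naming, not an independent count. Of the 29, 16 passed the threshold in each of the 12 fits that left out 1 library, and 13 did not in at least 1. No sign turned in any alternative.

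Among the 16, 12 differences lay below 0. The KO minus WT difference was -1.29 ± 0.12 for Slc7a2 (0.20 in KO, 1.49 in WT), -1.09 ± 0.12 for Aldh1a1 (-1.23 in KO, -0.14 in WT) and -0.84 ± 0.12 for Slc38a4, an amino acid transporter (-0.98 in KO, -0.15 in WT). It was -1.07 ± 0.16 for Lpin1 (-1.09 in KO, -0.01 in WT), -0.92 ± 0.14 for Cyp3a13, a P450 (-0.40 in KO, 0.52 in WT) and -0.95 ± 0.14 for Fabp5, a fatty acid carrier (-1.05 in KO, -0.10 in WT). Values were -0.84 ± 0.14 for Acaa2, a mitochondrial thiolase (-1.08 in KO, -0.24 in WT), -0.93 ± 0.15 for Acss2 (-1.28 in KO, -0.35 in WT) and -0.68 ± 0.13 for Cyp2a12 (-1.26 in KO, -0.59 in WT). The KO minus WT difference was -0.58 ± 0.11 for Sdc4 (-0.95 in KO, -0.37 in WT), -0.61 ± 0.12 for Cps1, the first enzyme of the urea cycle (-1.06 in KO, -0.45 in WT) and -0.61 ± 0.13 for Stard4, a cholesterol carrier (-0.66 in KO, -0.05 in WT). The other 4 lay above 0. The difference was 0.86 ± 0.13 for Gclc (1.46 in KO, 0.60 in WT), 0.94 ± 0.15 for Slc40a1 (1.76 in KO, 0.82 in WT) and 0.57 ± 0.11 for Tgfbr1 (-0.93 in KO, -1.50 in WT). It was 0.77 ± 0.15 for Slc7a11 (1.92 in KO, 1.15 in WT). Of the 16, Sdc4 and Cps1 did not pass under quantile normalization and Stard4 did not under equal library totals.

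Among the 13 that lost the call without at least 1 library, 10 lay below 0. The difference was -0.54 ± 0.11 for Vegfa (-1.21 in KO, -0.67 in WT), -0.55 ± 0.12 for Slc39a14 (-0.83 in KO, -0.28 in WT) and -0.79 ± 0.17 for Iigp1 (-0.70 in KO, 0.08 in WT). It came to -0.86 ± 0.21 for Ebp, a sterol isomerase (-1.33 in KO, -0.47 in WT), -0.55 ± 0.13 for Rgn (-1.27 in KO, -0.72 in WT) and -0.53 ± 0.13 for Sod2, the mitochondrial superoxide dismutase (-0.28 in KO, 0.25 in WT). Values were -0.55 ± 0.14 for Tnfaip3 (0.35 in KO, 0.90 in WT), -0.44 ± 0.11 for Crot (-1.42 in KO, -0.98 in WT) and -0.81 ± 0.20 for Aox3 (-1.91 in KO, -1.10 in WT). The difference was -0.46 ± 0.12 for F5, coagulation factor V (-1.13 in KO, -0.67 in WT). The 3 above 0 were 0.76 ± 0.16 for Parp14 (1.62 in KO, 0.86 in WT), 0.49 ± 0.11 for Txnrd1 (1.37 in KO, 0.88 in WT) and 1.34 ± 0.30 for Adam12, a metalloprotease (-0.68 in KO, -2.02 in WT). Adjusted p-values reached 0.055 to 0.14 when the most influential library was left out. Parp14, Vegfa, Slc39a14, Iigp1, Txnrd1 and Adam12 lost the call in 2 to 5 of the 12 fits, and Ebp, Rgn, Sod2, Tnfaip3, Crot, Aox3 and F5 in 8 to 11. Under equal library totals 9 of the 13 did not pass (Vegfa, Slc39a14, Ebp, Rgn, Sod2, Tnfaip3, Crot, Aox3 and F5). Vegfa, Rgn, Tnfaip3, Crot and F5 did not pass under quantile normalization, Ebp, Rgn, Sod2, Tnfaip3, Aox3 and F5 without the filter on low values, and Crot and Aox3 in a fit of the groups compared alone.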

How the results depend on the processing

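Leaving out 1 library gave 2666 to 3171 genes called in KO (1113 to 1509 higher and 1520 to 1662 lower with TNFa). Under equal library totals 4875 were called (3756 and 1119), and under the other settings tried 2636 to 3467. The KO minus WT difference was called for 62 to 286 genes without 1 library (46 to 197 below and 12 to 89 above 0), for 105 without the filter (81 below 0) and for 313 with library weights (236 below, 77 above 0). Under equal totals 42 lay below and 101 above 0, and under quantile normalization 55 lay above. Signs turned for Tnfrsf1a (0.18 under equal totals, and -0.18 to 0.0053 without 1 library, the latter without TGFb KO 3), Rela (0.23 under equal totals, 0.030 under quantile normalization, and -0.098 to 0.064 without 1 library, the latter without TGFb KO 1), Rel (0.15) and Cxcl10 (0.18) under equal totals, Actb (0.34) and Apob (0.34) under quantile normalization and Tgfb3 (-0.46 to 1.68 without 1 library, the former without TNFa KO 3). The mitochondrial share difference of -0.145 percentage points ranged over -0.5208 to 0.4463 without 1 library, turning to 0.25 without TNFa KO 3 and 0.446 without TGFb KO 1. The cause of these changes was not tested. Of 265 named genes, 15 lost their call under equal totals and 18 without TNFa KO 3. With the replicate number as a block, 3258 genes were called in KO and 169 for the difference, and of the named genes Apob gained a call and none lost one. Same-numbered KO libraries correlated at 0.034, 0.164 and 0.071 and WT libraries at 0.041, 0.004 and 0.037 in their deviations from group means over 11010 genes. Differently numbered libraries correlated at -0.113 to 0.051 in KO and at -0.043 to 0.003 in WT. TNFa KO 1 correlated best with TGFb KO 3 (0.051), and every other TNFa library with the TGFb library of its own number. The correlations were weak and the labels name no pairs, so the main fit had no block. Whether the numbers pair the libraries cannot be told from these values. Low values limit the precision, as Tgfb3 and Smad6 show.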

Other observations

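Antigen presentation genes moved both ways. Of 20 MHC class I and peptide loading genes 6 were called higher and 3 lower, with a median of 0.23 (0.48 under equal totals, and 3 higher without TNFa KO 1, without the filter or in a fit of the 6 libraries alone). Nlrc5, which switches on MHC class I genes, was read at 983, 998 and 1023 with TNFa and 431, 530.5 and 530.1 with TGFb (1.02 ± 0.13), while the light chain B2m stood at 12996, 12181 and 13433 against 27805, 20839 and 17749 (-0.76 ± 0.12) and the heavy chain H2-K1, which has close copies that may share reads, differed by -0.66 ± 0.10. Of 20 checkpoint and T cell ligand genes 3 were called higher and 5 lower, at a median of -0.26 that was -0.01 under equal totals, where 5 were higher. Tnfsf10 (TRAIL), a death ligand (1.82 ± 0.45), and Cd274 (PD-L1), which restrains T cells (0.68 ± 0.14), were higher, and Ceacam1 (-1.20 ± 0.12) and the arginase Arg1 (-1.04 ± 0.10) were lower.

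Stress genes moved both ways. Of 27 genes of protein folding stress and amino acid shortage 4 were called higher and 15 lower, at a median of -0.31 that was -0.06 under equal totals, where 7 were higher and 8 lower. The chaperone Hsp90b1 (-0.77 ± 0.10) and the mTORC1 inhibitor Ddit4 (-1.48 ± 0.16) were lower, and the serine synthesis gene Psat1 was higher (0.53 ± 0.09). Of 23 p53 target and growth arrest genes 2 were called higher and 6 lower, at a median of -0.04 that was 0.21 under equal totals, where 5 were higher. Gadd45a was read at 939, 805 and 952 with TNFa and 2189, 2008 and 2423 with TGFb (-1.30 ± 0.12), and Plk2, a stress-responsive kinase, was higher (1.17 ± 0.09). Of 30 cell cycle and DNA replication genes 6 were called higher and 2 lower (1 lower without TNFa KO 1 or without TGFb KO 1, and 10 higher under equal totals), with a median of 0.29 (0.54 under equal totals), among them the helicase subunit Mcm2 (1.35 ± 0.19), higher, and its partner Mcm6 (-0.80 ± 0.15), lower. Of 21 junction and keratin genes 3 were called higher and 3 lower, at a median of -0.04 that was 0.22 under equal totals (7 higher) and 0.10 under quantile normalization (5 higher). The claudin Cldn3 was higher (0.93 ± 0.17) and the connexin Gjb2 lower (-0.97 ± 0.14).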
